A study of Mus musculus with 10 samples.

Results

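The genes described here encode the nuclear subunits and assembly factors of the mitochondrial respiratory chain and ATP synthase. They were chosen by name: every listed gene whose symbol begins with Nduf, Uqcr, Cox4 to Cox8 or Atp5, together with Sdha to Sdhd, Cyc1 and Cycs. This gave 90 of the 12160 genes in the expression table. By complex they were 7 core and 31 accessory subunits of complex I, 7 complex I assembly factors, 4 genes of complex II, 9 of complex III, cytochrome c, 14 of complex IV and 17 of ATP synthase. The grouping followed the symbols, so that Ndufa4, now counted as a complex IV subunit, stood with complex I, and Atp5sl, known as a complex I assembly factor, stood with ATP synthase.

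The libraries came from male, genetically wild type CD-1 mice with pancreatitis induced by caerulein, a cholecystokinin analogue that injures acinar cells. All 10 libraries share the caerulein treatment, given for 4 cycles at 250 ug/kg in 2 injections a day, 5 days a week, with 0 to 2 days of recovery, and no library from an uninjured pancreas was analysed here. From 5 mice, 100 Cd45-neg, EpCAM+ and Siglec f+ cells (tuft) and 100 Cd45-neg, EpCAM+ and Siglec f-neg cells (non-tuft epithelium) were sorted per library, which gave 5 libraries a group for Smart-Seq2, a method that amplifies full-length cDNA from few cells. The labels state the strain field as mixed and the strain in the protocol as CD1. A sorted library is bulk RNA, in which fewer cells of a type and less RNA per cell cannot be told apart.

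Complex I takes electrons from NADH and complex II from succinate, and both pass them to coenzyme Q. Complex III hands them to cytochrome c, and complex IV (cytochrome c oxidase) transfers them to oxygen, while complexes I, III and IV pump protons that drive ATP synthase. The catalytic centre of complex IV is encoded in mitochondrial DNA, and the nuclear Cox genes encode the subunits around it, several of them with a heart and muscle isoform and a liver or ubiquitous isoform. Tuft cells are rare chemosensory epithelial cells with an apical tuft of microvilli, whereas acinar cells secrete digestive enzymes.

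Sorting was checked on marker lists. All 13 listed tuft markers of 14 were higher in tuft libraries at an adjusted p under 0.05 (limma), and their summed linear level was 0.333 to 539 in non-tuft libraries against 4335 to 12553 in tuft libraries. Of 14 acinar markers 11 were lower, with a summed level of 69315 to 103885 in non-tuft and 736 to 68743 in tuft libraries, so acinar RNA was present in tuft libraries in unequal amounts. Of the islet list 4 of 9 markers were lower, with a summed level of 2.71 to 20916 in non-tuft and 0.484 to 42.6 in tuft libraries. Islet RNA was thus present in non-tuft libraries in very unequal amounts. Of the 7 listed ductal markers 1 was higher and 1 lower. Of the 6 listed leukocyte markers 1 was higher, with a summed level of 0.751 to 19.0 in non-tuft and 6.50 to 42.8 in tuft libraries. That marker was Ptprc, which encodes Cd45, the surface protein the sort was negative for. It was at 1.04, 0.17, 0.48, 0 and 1.93 in non-tuft and 3.97, 4.33, 2.74, 2.74 and 3.45 in tuft libraries (adjusted p = 0.00292, limma), so the groups did not overlap and its RNA in the tuft libraries went against the Cd45-neg label. Of the 7 listed dissociation and stress genes 0 were higher and 1 lower by limma, with 5 lower at an unadjusted p under 0.05, a median difference of -1.60 on the log2 scale and a summed level of 211 to 479 in non-tuft and 34.0 to 364 in tuft libraries. The part of these cell types and of stress genes in the results below was not tested. Sequencing depth is unknown from the deposited values.

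Values are log2(RPKM + 1) after quantile normalization. The top 8407 values are the same in every library, and among them a gene's value tells its rank within a library. Below them the libraries differ, with 1442 to 3753 genes at a library's lowest value. RPKM is per transcript length, and differences are tuft minus non-tuft on this log2 scale. Of the 90 members, 10 were higher and 2 lower in tuft libraries at an adjusted p under 0.05 by limma with Benjamini-Hochberg adjustment over all 12160 genes, 13.3% of the members beside 11.7% of all listed genes. For the higher direction this was 11.1% of members against 6.19% of all genes, and for the lower direction 2.22% against 5.55%. With a fold over 4 also required, 5 members were higher and 1 was lower, 6.67% of the members beside 8.31% of all genes, of which 4.32% were higher and 3.99% lower. The median difference was 0.53 for the members and 0.02 for all listed genes, and 77 members had a difference above 0, which 50.9% of all listed genes had. At an unadjusted p under 0.05, 22 members were higher and 3 lower, 24.4% and 3.33% of the members beside 12.9% and 12.2% of all listed genes, or in both directions together 27.8% beside 25.1%. Most members were well expressed, and among genes with a mean of at least 5 the called share was 13.0% of 69 members (9 higher, 0 lower) beside 18.3% of 1526 genes (152 higher, 127 lower). Leaving out tuft libraries 1 and 2 together, an alternative chosen after seeing that both were high for many members, left 5 members higher and 0 lower, with a median of 0.35. That was 5.56% of the members beside 7.56% of all listed genes, of which 497 (4.09%) were higher and 422 (3.47%) lower.

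The calls lay mostly in complex IV. Of its 14 genes 7 were higher and 1 lower, 57.1% of the complex, while of the other 76 members 3 were higher and 1 lower, 5.26%. In 8 complex IV genes the lowest tuft library lay above the highest non-tuft library, in a table where 6.31% of all genes did so. ATP synthase, with 17 genes, had 0 called in either direction and 0 at an unadjusted p under 0.05.

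**Figure D1:**
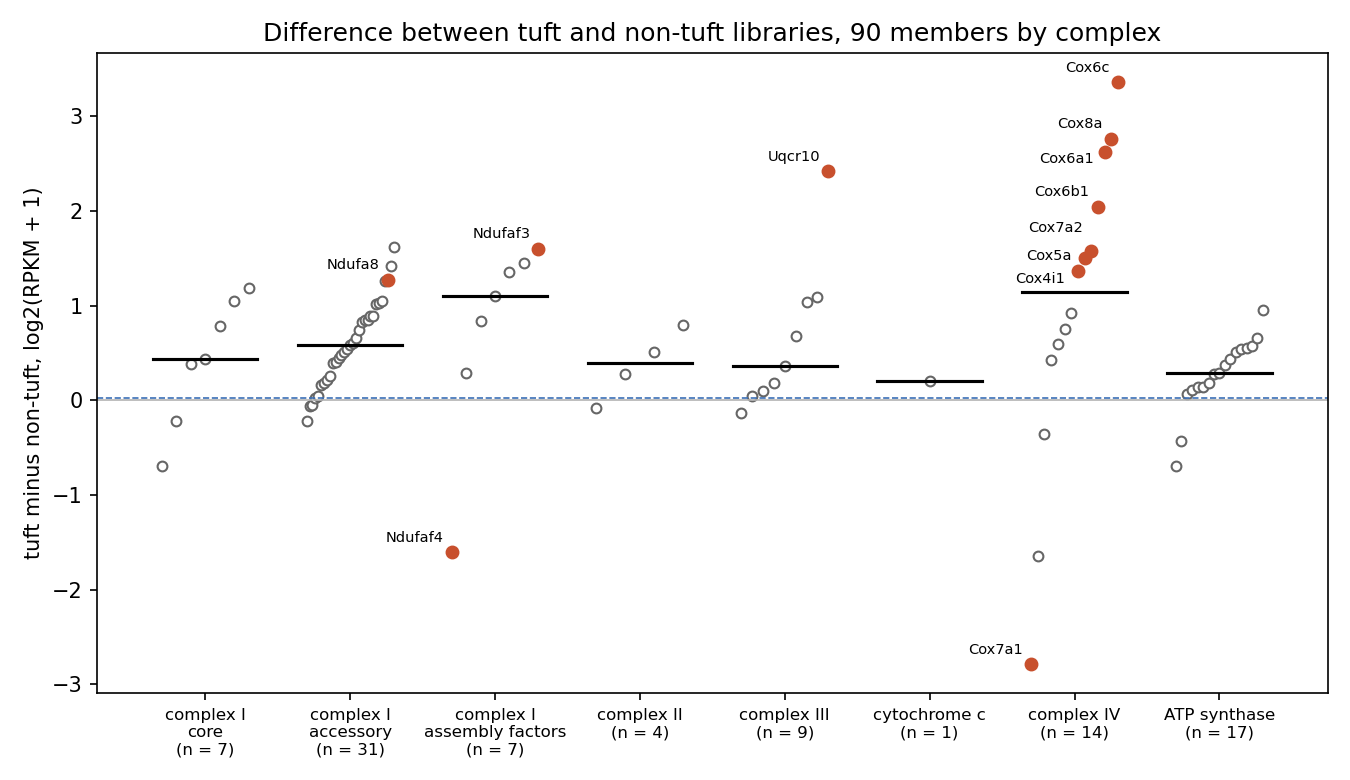
Tuft minus non-tuft difference in mean log2(RPKM + 1), 5 libraries a group, for each of the 90 members by complex. Filled points passed an adjusted p of 0.05 (limma), black bars are medians of the complex and the dashed line is the median of all listed genes (0.02). Complex IV reaches from -2.79 to 3.36, ATP synthase from -0.69 to 0.96.

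Promoter windows are printed for complex IV genes among the largest differences, because 7 of the 14 genes of this complex were higher. Some of them hold the motifs named here. Cox6c, which had the largest difference, and Cox4i1 had no promoter entry and could not be printed. Cox5a had an entry but is not printed, and its longer window, described below, held no NRF1, ETS or YY1 match. The sequences are the 160 bases before the annotated start, from RefSeq in GRCm38.p6, a build that differs from that of the expression table (mm9), 5′ to 3′ on the gene's strand. Capitals mark a match to the NRF1 motif or to the ETS motif on either strand.
Cox6a1 (chr5:115348959-115349118, minus strand): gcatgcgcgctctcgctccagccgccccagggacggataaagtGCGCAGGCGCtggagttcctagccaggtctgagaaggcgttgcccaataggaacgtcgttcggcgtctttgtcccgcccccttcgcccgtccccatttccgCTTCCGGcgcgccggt
Cox6b1 (chr7:30626115-30626274, minus strand): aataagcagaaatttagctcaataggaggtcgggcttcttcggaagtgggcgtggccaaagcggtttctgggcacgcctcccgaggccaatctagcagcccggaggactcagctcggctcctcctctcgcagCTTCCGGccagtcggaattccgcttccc
Cox8a (chr19:7217617-7217776, minus strand): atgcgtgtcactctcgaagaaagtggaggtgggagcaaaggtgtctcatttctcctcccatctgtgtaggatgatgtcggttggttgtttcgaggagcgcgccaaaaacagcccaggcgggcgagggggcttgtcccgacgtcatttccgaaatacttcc
Cox7a2 (chr9:79759854-79760013, minus strand): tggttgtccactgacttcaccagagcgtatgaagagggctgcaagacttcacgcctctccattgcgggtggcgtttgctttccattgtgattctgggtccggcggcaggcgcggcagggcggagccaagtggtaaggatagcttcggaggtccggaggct
Cox7a1 (chr7:30184011-30184170, plus strand): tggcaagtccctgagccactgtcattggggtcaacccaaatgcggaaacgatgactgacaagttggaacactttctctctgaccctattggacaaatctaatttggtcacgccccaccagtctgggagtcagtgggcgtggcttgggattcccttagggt

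The motif of NRF1, a regulator of nuclear genes for mitochondrial proteins, matched in Cox6a1, and the ETS motif (CCGGAAG) matched in Cox6a1 and Cox6b1. No match of these letters stands in the printed windows of Cox8a, Cox7a2 and Cox7a1, though Cox8a has an ETS match further along the longer window used next. In windows of 250 bases before to 50 bases after the start, both strands, the NRF1 motif was in 25.3% of the 75 members found in the promoter table, against 11.6% of 9112 listed genes and 5.19% of 27025 promoter genes. The ETS motif was in 22.7% of the members against 20.2% of listed genes and 9.93% of promoter genes, and the YY1 motif (AAGATGGC) was in 14.7% of the members against 5.32% and 3.19%. Of the 11 complex IV genes found, 9.09% held the NRF1 motif, 27.3% the ETS motif and none the YY1 motif. Of the 16 ATP synthase genes found, 37.5% held the NRF1 motif, 31.2% the ETS motif and 25.0% the YY1 motif. The 3 motifs do not contain one another. NRF1, the factor itself (Nrf1), was at 2.23 ± 0.55 (SD, n = 5) in non-tuft and 1.43 ± 0.95 in tuft libraries, a difference of -0.80 with an adjusted p of 0.354 by limma.

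Among the nuclear complex IV subunits, Cox6c (chr15:35855641-35868001, NCBIM37) had the largest difference. It was at 9.08, 9.19, 9.25, 9.15 and 8.95 in non-tuft libraries 1 to 5, and at 13.11, 13.11, 12.04, 11.96 and 12.22 in tuft libraries 1 to 5. Every tuft library lay above every non-tuft library, and tuft libraries 1 and 2 were the highest. The means were 9.13 ± 0.12 (SD, n = 5) and 12.49 ± 0.57, a difference of 3.36 with a standard error of 0.38 (95% interval 2.54 to 4.18), 10.3-fold on this scale (adjusted p = 1.06e-04, limma). An exact two-sided permutation test over the 10 libraries gave p = 0.00794, the smallest it can give with 5 against 5. By rank Cox6c stood at place 81 to 103 from the top of the 12160 genes in non-tuft libraries and at place 8 to 18 in tuft libraries.

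Cox8a (chr19:7289648-7292106), which encodes the ubiquitous form of subunit VIII, was at 9.29, 9.48, 9.76, 9.38 and 8.89 in non-tuft libraries and at 12.46, 12.22, 11.85, 12.04 and 12.04 in tuft libraries. The tuft libraries lay close together and all above the non-tuft libraries. The means were 9.36 ± 0.32 and 12.12 ± 0.23 (SD, n = 5 each), a difference of 2.76 with a standard error of 0.35 (adjusted p = 2.43e-04, limma), 6.79-fold. Its place rose from 55 to 108 in non-tuft libraries to 13 to 20 in tuft libraries.

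Cox6a1 (chr5:115795651-115798990), the ubiquitous form of subunit VIa, was at 9.37, 8.92, 8.82, 9.09 and 8.71 in non-tuft and 12.22, 12.14, 11.28, 11.10 and 11.28 in tuft libraries. Tuft libraries 1 and 2 stood above the other tuft libraries, and the groups did not overlap. The difference was 2.62 with a standard error of 0.38 (adjusted p = 7.17e-04, limma), 6.16-fold. Cox6b1 (chr7:31401993-31411170), the somatic form of subunit VIb that faces the intermembrane space, was at 9.13, 8.93, 9.18, 9.43 and 8.87 in non-tuft and 11.92, 11.53, 10.39, 10.82 and 11.10 in tuft libraries. The tuft values spread over a wider range than the non-tuft values without reaching them. The difference was 2.05 with a standard error of 0.39 (adjusted p = 0.00403, limma), 4.13-fold.

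Cox7a2 (chr9:79603048-79607660), the liver-type form of subunit VIIa, was at 7.81, 7.93, 7.11, 7.61 and 6.95 in non-tuft and 9.24, 9.46, 8.85, 8.98 and 8.77 in tuft libraries. The groups did not overlap, and the difference was 1.58 with a standard error of 0.37 (adjusted p = 0.0132, limma), 2.99-fold. Cox5a, which with Cox4i1 is among the first nuclear subunits to join the complex, was at 7.88 ± 0.25 in non-tuft and 9.39 ± 0.36 in tuft libraries (SD, n = 5), a difference of 1.50 (SE 0.36, adjusted p = 0.0142, limma). Cox4i1, a subunit that binds nucleotides and adjusts the complex's activity, was at 9.35 ± 0.19 and 10.72 ± 0.53, a difference of 1.37 (SE 0.38, adjusted p = 0.0312, limma). All 7 higher genes of complex IV had non-overlapping groups. Without tuft libraries 1 and 2 the adjusted p by limma was 0.0643 for Cox5a, 0.0713 for Cox7a2 and 0.146 for Cox4i1. Cox4i1 also lost its call without tuft library 1 (adjusted p = 0.063), library 2 (adjusted p = 0.0752) or library 5 (adjusted p = 0.057), and with 0.1 in place of 1 added before the logarithm (adjusted p = 0.0581), by limma. Cox6c, Cox8a, Cox6a1 and Cox6b1 were called under each of the 19 alternatives run, with adjusted p-values by limma of at most 0.0282.

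**Figure D2:**
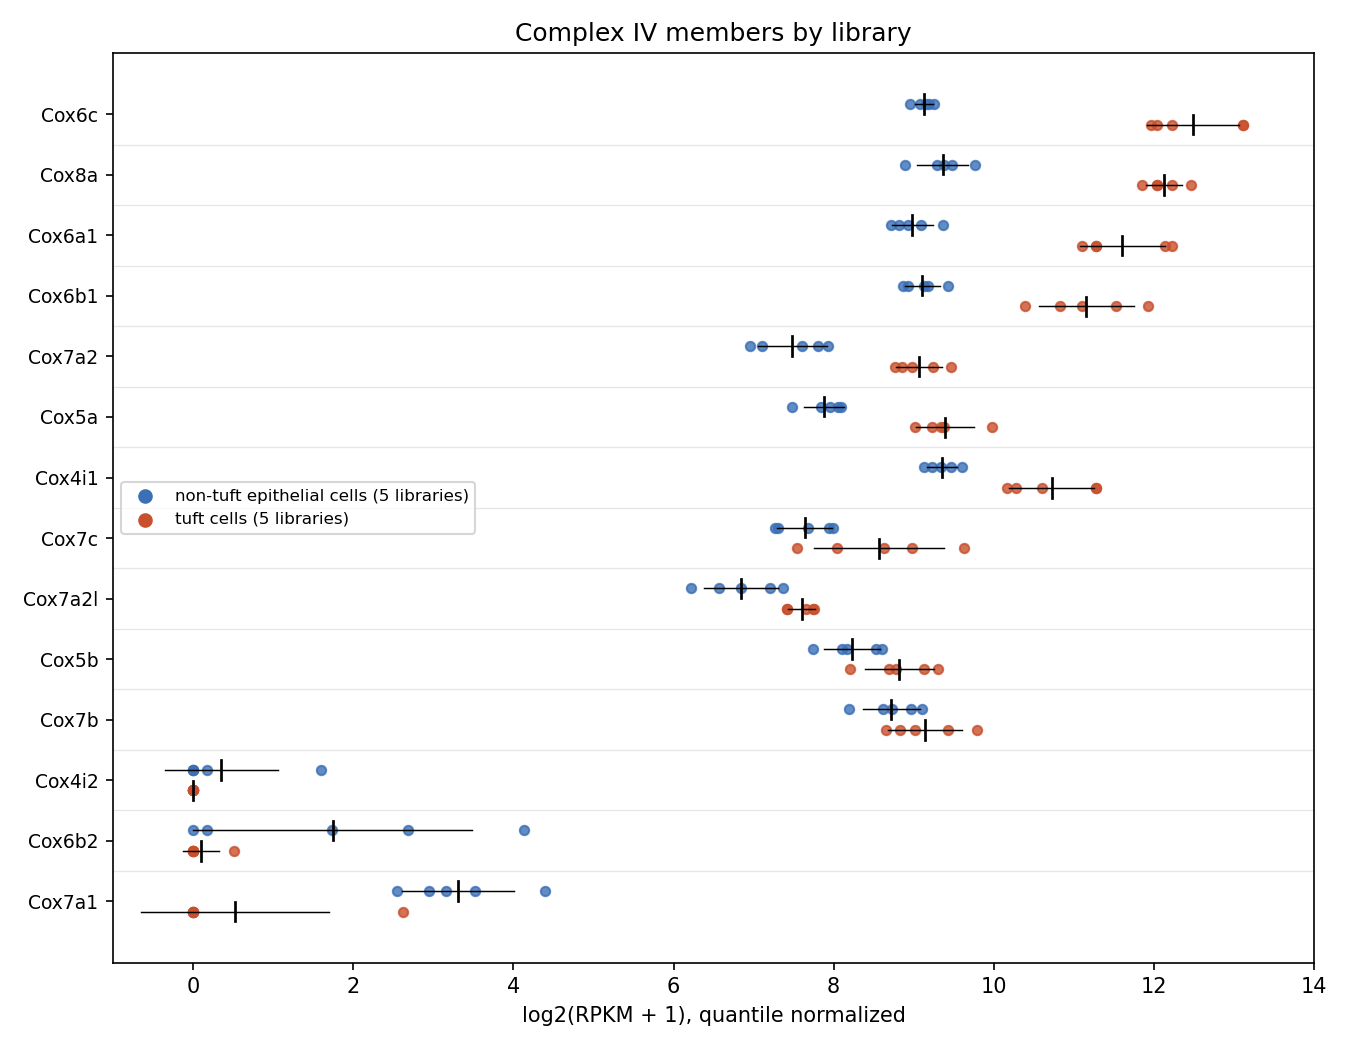
Level of the 14 complex IV members in each library, log2(RPKM + 1), 5 non-tuft libraries in blue and 5 tuft libraries in red, with black bars for the mean and lines for the SD. Cox6c, Cox8a, Cox6a1 and Cox6b1 lie at 8.71 to 9.76 in the non-tuft group and at 10.39 to 13.11 in the tuft group.

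The lower gene of complex IV was Cox7a1 (chr7:30969190-30971047), the heart and muscle form of subunit VIIa. It was at 2.94, 3.16, 3.51, 4.39 and 2.55 in non-tuft libraries and listed at 0 in tuft libraries 1, 2, 3 and 5, with 2.62 in tuft library 4. Tuft library 4 overlapped the lowest non-tuft library. The difference was -2.79 with a standard error of 0.57 (adjusted p = 0.00641, limma; exact two-sided permutation p = 0.0159), and its size depends on the value added before the logarithm, since it was -5.34 with 0.1 added and -0.83 with 10 added. Without tuft libraries 1 and 2 its adjusted p by limma was 0.0660. Cox7a1 made up 2.91% to 9.31% of the summed linear level of Cox7a1 and Cox7a2 in non-tuft libraries and 0% to 1.01% in tuft libraries, without overlap. Of the listed brown fat and muscle markers, which share this isoform, 0 of 3 were called by limma, with 1 lower at an unadjusted p under 0.05, and their summed linear level was 0.374 to 32.5 in non-tuft and 0 to 4.74 in tuft libraries. In tuft library 4 the brown fat and muscle list had a mean of 0, and the acinar list had its highest tuft mean, 7.93. Tuft library 1, where Cox7a1 was at 0, had an acinar mean of 7.53. The part of other cells in the Cox7a1 level was not tested.

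The other isoform genes of complex IV were low. Cox4i2, the form of subunit IV known from lung, was at 0, 0.17, 1.60, 0 and 0 in non-tuft libraries and listed at 0 in all tuft libraries. Cox6b2, the testis form of subunit VIb, was at 2.68, 0.17, 0, 4.13 and 1.74 in non-tuft libraries and at 0, 0, 0, 0 and 0.51 in tuft libraries, so that it was well above 0 only in non-tuft libraries 1, 4 and 5. The 0.17 in non-tuft library 2 is the lowest value of that library. The difference of Cox6b2 was -1.64 (SE 0.69, adjusted p = 0.159, limma). Cox6a2, Cox7b2, Cox8b and Cox8c are not among the listed genes and were not analysed here.

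The 4 remaining genes, Cox7a2l, Cox7c, Cox5b and Cox7b, were between the called genes and 0. Cox7a2l, which links complexes III and IV into supercomplexes, was at 6.57, 6.22, 7.20, 6.84 and 7.37 in non-tuft and 7.74, 7.42, 7.76, 7.66 and 7.42 in tuft libraries. The groups did not overlap, yet the difference of 0.76 (SE 0.36, adjusted p = 0.218, limma) missed the threshold. Cox7b differed by 0.42 (SE 0.38, 95% interval -0.40 to 1.24, adjusted p = 0.538, limma).

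In complex III, Uqcr10 (chr11:4601976-4604345), a small subunit beside the Rieske protein, was the only called gene. It was at 8.59, 8.63, 7.75, 8.06 and 7.77 in non-tuft and 11.35, 11.57, 9.98, 9.69 and 10.31 in tuft libraries. Tuft libraries 1 and 2 were the highest of that group, and all tuft libraries lay above all non-tuft libraries. The difference was 2.42 with a standard error of 0.46 (adjusted p = 0.00394, limma), 5.34-fold. It too was called under each of the 19 alternatives, with an adjusted p of at most 0.0269 by limma. The other 8 genes, among them the core proteins Uqcrc1 and Uqcrc2, the Rieske protein Uqcrfs1 and cytochrome c1 (Cyc1), ranged from -0.13 for Cyc1 to 1.09 for Uqcrh, whose groups did not overlap (adjusted p = 0.106, limma). The median of the complex was 0.36.

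Complex I had 1 called subunit among 38. Ndufa8, an accessory subunit with cysteine motifs that faces the intermembrane space, was at 6.84, 6.93, 6.78, 6.30 and 6.65 in non-tuft and 7.22, 8.69, 7.77, 8.19 and 8.01 in tuft libraries. The groups did not overlap, with tuft library 1 the nearest to the non-tuft libraries. The difference was 1.27 with a standard error of 0.38 (adjusted p = 0.0468, limma), close to the threshold. It lost its call under 12 of 19 alternatives, among them without tuft library 2 (adjusted p = 0.106), 3 (0.0719), 4 (0.081) or 5 (0.0883) and without non-tuft library 1 (0.0618), 3 (0.0616), 4 (0.0858) or 5 (0.0643), by limma.

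Of the 31 accessory subunits, Ndufa8 included, 28 had a difference above 0, with a median of 0.58 and a range of -0.22 to 1.62. Ndufb8 was at 9.67, 9.40, 8.56, 8.84 and 8.83 in non-tuft and 12.32, 11.35, 9.89, 9.57 and 10.28 in tuft libraries. Tuft library 4 overlapped the non-tuft group, and tuft libraries 1 and 2 stood far above the rest. The difference of 1.62 (SE 0.54, adjusted p = 0.0698, limma) was the largest of complex I and missed the threshold. Ndufa4 was at 9.57, 8.84, 8.64, 9.13 and 8.71 in non-tuft and 10.17, 9.61, 9.65, 9.51 and 9.69 in tuft libraries, a difference of 0.75 (SE 0.36, adjusted p = 0.217, limma). Its relative Ndufa4l2, a hypoxia-induced gene, was listed at 0 in 3 of 5 libraries of each group.

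The 7 core subunits, which hold the NADH site and the iron-sulphur clusters, had 0 called by limma, with 2 higher and 0 lower at an unadjusted p under 0.05, and a median of 0.43. Ndufs1 had the largest difference at 1.19. Ndufs3 was at 7.57, 7.23, 7.40, 7.59 and 7.24 in non-tuft and 7.15, 6.99, 7.12, 7.65 and 7.05 in tuft libraries. Apart from tuft library 4 the tuft values were the lower ones, and the difference of -0.21 had an adjusted p of 0.742 by limma.

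The assembly factors build complex I and are no part of the finished enzyme. Of these 7 genes 6 had a difference above 0 and 1 below, with a median of 1.10. The size of this median depends on the value added before the logarithm. It was 1.75 with 0.1 added and 0.36 with 10 added. The 2 called genes went in opposite directions. Ndufaf3 was at 3.44, 2.44, 1.90, 3.53 and 3.36 in non-tuft and 4.04, 5.18, 4.29, 4.54 and 4.61 in tuft libraries, a difference of 1.60 (SE 0.44, adjusted p = 0.0292, limma). Ndufaf4, whose protein binds that of Ndufaf3 during assembly, was at 6.55, 5.87, 5.05, 4.83 and 5.28 in non-tuft and 4.26, 3.47, 4.14, 3.997 and 3.68 in tuft libraries, a difference of -1.61 (SE 0.42, adjusted p = 0.0239, limma). Neither gene's groups overlapped, one with tuft above and the other with tuft below, and Ndufaf4 was the only one of 90 members with all tuft libraries below all non-tuft libraries, where 5.12% of all genes had this order. Ndufaf3 lost its call without non-tuft library 2 (adjusted p = 0.0557) or 3 (0.0562) and without tuft library 2 (0.0751), 3 (0.0521), 4 (0.0544) or 5 (0.0655), and with 0.1 added before the logarithm (0.0535), by limma. Ndufaf4 lost its call without tuft library 2 (adjusted p = 0.06) or 5 (0.0588), and centring on cytosolic ribosomal protein genes brought it to -0.87 (adjusted p = 0.178), by limma. Without tuft libraries 1 and 2 the adjusted p by limma was 0.0937 for Ndufaf3 and 0.0845 for Ndufaf4. Ndufaf1, Ndufaf5, Ndufaf6 and Ndufaf7 had values at 0 or at the library's lowest value in some libraries, and their differences of 1.10, 1.36, 0.29 and 1.45 were not called.

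Complex II, which is also an enzyme of the citrate cycle, had 0 of 4 genes called by limma, with 1 higher at an unadjusted p under 0.05. Sdhb, the iron-sulphur subunit, was at 7.18, 6.84, 7.18, 6.76 and 7.17 in non-tuft and 7.94, 7.92, 7.64, 7.74 and 7.84 in tuft libraries. The groups did not overlap, and the difference was 0.80 (SE 0.33, adjusted p = 0.153, limma). Sdha, the flavoprotein, differed by 0.51 and the membrane anchors Sdhc and Sdhd by -0.08 and 0.27, none of them called. Cycs, the mobile carrier between complexes III and IV, was at 7.28 ± 0.63 in non-tuft and 7.49 ± 0.22 in tuft libraries (SD, n = 5), a difference of 0.21 (95% interval -0.65 to 1.06, adjusted p = 0.795, limma).

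Among the genes placed with ATP synthase the largest difference was 0.96, for Atp5sl, which is no subunit of it, followed by 0.66 for Atp5d, the delta subunit of the central stalk (adjusted p = 0.327, limma), and the median was 0.29. Atp5f1, the peripheral stalk subunit with the highest level of the complex, was at 9.65, 9.29, 8.74, 8.90 and 9.08 in non-tuft and 9.29, 9.32, 9.53, 8.68 and 9.76 in tuft libraries. The groups ran through each other, with a difference of 0.19 (95% interval -0.62 to 0.99, adjusted p = 0.802, limma), and its place from the top was 59 to 123 in non-tuft and 55 to 131 in tuft libraries. The genes Atp5g1, Atp5g2 and Atp5g3 encode the same mature subunit c of the rotor ring. Atp5g1 differed by -0.69 (95% interval -1.56 to 0.17, adjusted p = 0.316), Atp5g2 by -0.43 (adjusted p = 0.491) and Atp5g3 by 0.11 (adjusted p = 0.898), by limma. Every 50-base window of Atp5g2's longest transcript occurs elsewhere in NCBIM37, and 29.4% of those of Atp5g1, so reads of these genes may be shared with copies and their levels are uncertain.

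**Figure D3:**
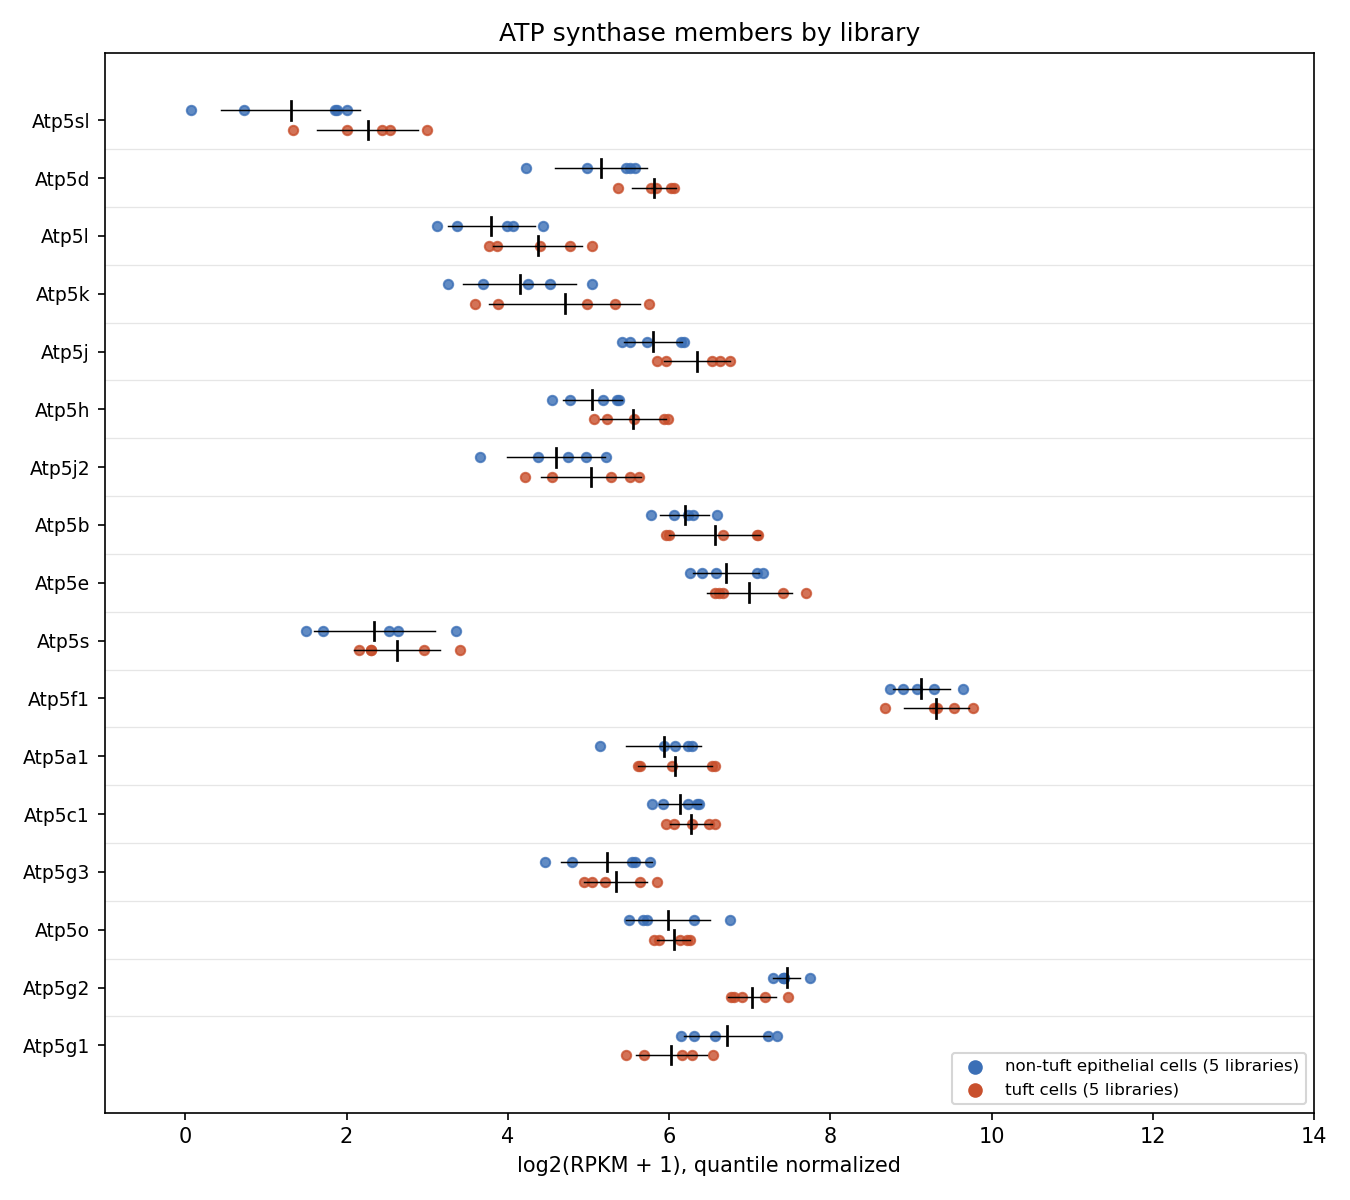
Level of the 17 ATP synthase members in each library, log2(RPKM + 1), 5 non-tuft libraries in blue and 5 tuft libraries in red, with black bars for the mean and lines for the SD. The groups overlap in each of the 17 genes, and Atp5f1, at 8.68 to 9.76, is the highest.

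Members were summed as linear values, taken back from the quantile-normalized scale, so the sums are not of measured RPKM. Complex IV made up 0.685% to 0.873% of the sum over all listed genes in non-tuft libraries and 2.68% to 5.30% in tuft libraries. ATP synthase made up 0.212% to 0.314% and 0.267% to 0.313%. The ratio of the group means was 4.73 for complex IV, 2.13 for complex III, 2.04 for complex I accessory subunits, 1.56 for complex II, 1.29 for complex I core subunits, 1.11 for ATP synthase, 1.08 for cytochrome c and 0.951 for complex I assembly factors. A linear sum follows its highest genes, so a ratio need not describe most genes of a complex. The median log2 difference was 0.36 for complex III, where Uqcr10 was the highest gene. For the assembly factors it was 1.10, while Ndufaf4, their highest gene, was lower in tuft libraries. The complex IV share lay above every non-tuft library in all 5 tuft libraries, and the ATP synthase shares overlapped.

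Tuft libraries 1 and 2 held the 2 highest tuft values for 45 of the 90 members, and non-tuft libraries 1 and 2 did so in their group for 33. The 45 include Cox4i2, a tie in which all tuft libraries were at 0. The mean over all members was 5.93 to 6.30 in non-tuft libraries, 6.99 and 6.96 in tuft libraries 1 and 2 and 6.49 to 6.67 in the other tuft libraries. Without tuft libraries 1 and 2 the difference was 2.95 for Cox6c, 2.62 for Cox8a, 2.24 for Cox6a1, 1.67 for Cox6b1 and 1.83 for Uqcr10, all still called by limma.

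**Figure D4:**
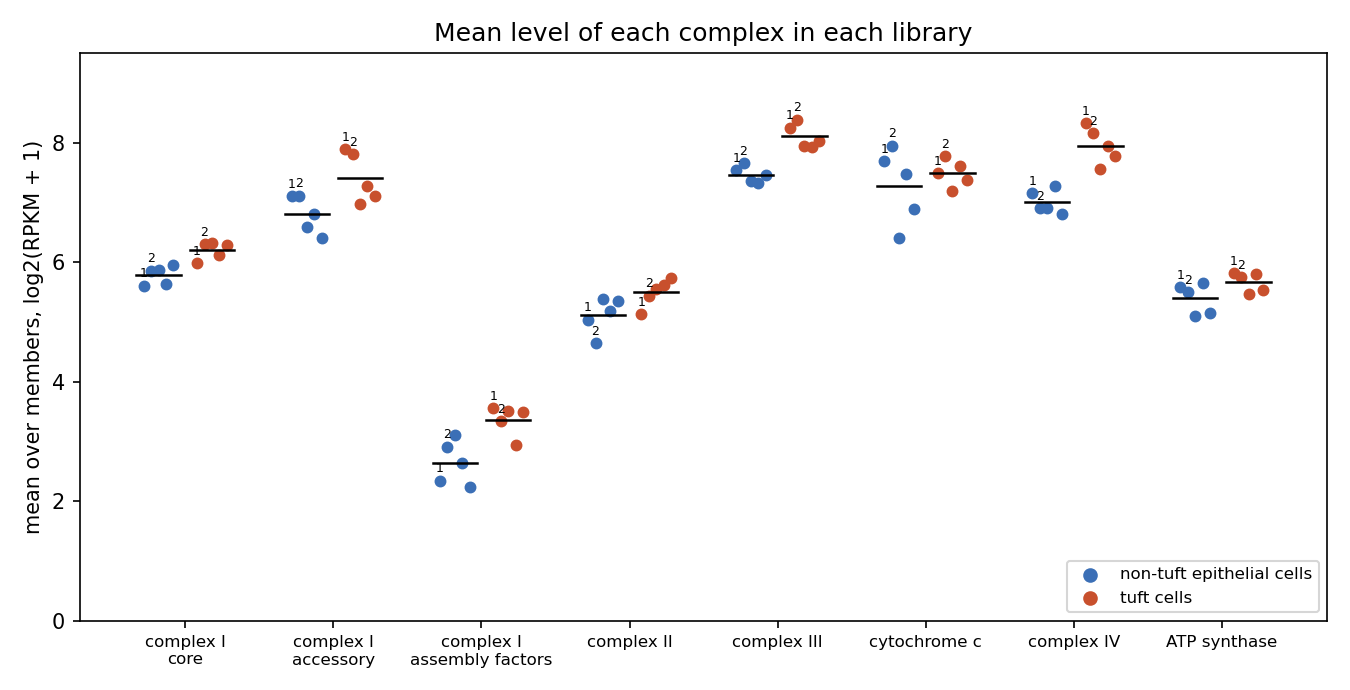
Mean level over the members of each complex in each library, log2(RPKM + 1), non-tuft in blue and tuft in red, with libraries 1 and 2 numbered and black bars for the group mean. The complex IV means run from 6.81 to 7.28 in non-tuft libraries and from 7.55 to 8.32 in tuft libraries.

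Quantile normalization fixed the upper part of the distribution but not the level of any one group of genes. Of 85 cytosolic ribosomal protein genes 6 were lower and 0 higher in tuft libraries at an adjusted p under 0.05 (limma; 36 lower and 0 higher at an unadjusted p under 0.05), with a median of -0.79. Centring each library on these genes moved the median of all listed genes from 0.02 to 0.76 and that of the members from 0.53 to 1.26. This centring shifts every gene of a library alike, so the gap between both medians cannot change. With this centring 44 members were higher and 1 lower, in place of 10 and 2, and 1985 of all listed genes were higher and 305 lower, in place of 753 and 675. Centring on 77 mitochondrial ribosomal protein genes gave a median of 0.47 for the members and -0.04 for all genes.

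Several members have near copies elsewhere in the genome. Windows of 50 bases were taken from each member's longest annotated protein-coding transcript. For Cox6c this has 738 bases, while its longest annotated transcript of any type has 3038. Among 87 members with a position in NCBIM37, 41 had no window elsewhere, and 6 had at least 50% of their windows elsewhere. Among the called genes the share was 0% for Cox4i1, Cox7a1, Uqcr10, Ndufa8, Ndufaf3 and Ndufaf4, 2.6% for Cox6b1, 3.1% for Cox5a, 4.4% for Cox7a2, 12.3% for Cox6a1, 13.9% for Cox6c and 21.0% for Cox8a. Atp5l at 89.4%, Cox5b at 62.7%, Uqcrb at 61.5%, Atp5h at 59.6% and Cox7a2l at 54.3% are therefore uncertain in level. The share was 43.0% for Ndufs3 and 38.5% for Cycs, so their levels are uncertain too.

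**Figure D5:**
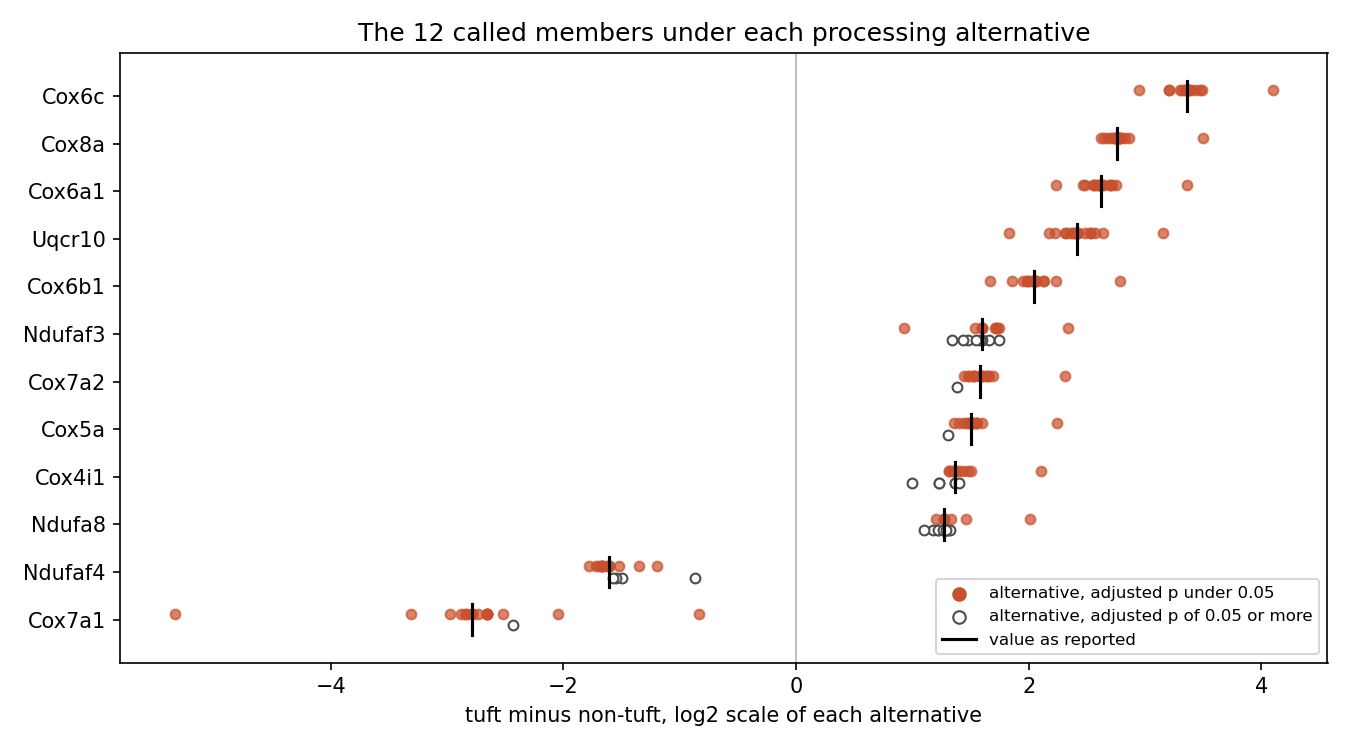
Difference between tuft and non-tuft libraries for the 12 called members as reported (black bar) and under each processing alternative, filled where the adjusted p was under 0.05 (limma) and open where it was not. Cox6c, Cox8a, Cox6a1, Cox6b1 and Uqcr10 have filled points only, and no alternative changes the sign of any of the 12.

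The genes around the respiratory chain were described by lists. Of 16 listed genes for the exchange of ATP, phosphate and metabolites, 4 were higher and 1 lower at an adjusted p under 0.05 (limma), with a median of 0.51. Ckmt1, the mitochondrial creatine kinase that moves high-energy phosphate out of the mitochondrion, rose by 2.82 (adjusted p = 0.00388, limma), from 5.66 ± 1.05 in non-tuft to 8.48 ± 0.61 in tuft libraries (SD, n = 5). Vdac3, an outer membrane channel, rose by 2.51, Slc25a20, the carnitine carrier, by 2.78, and Slc25a12, an aspartate and glutamate carrier, by 1.98. Its paralogue Slc25a13 fell by 1.68 (adjusted p = 0.0334, limma). The ATP and ADP carriers Slc25a4 and Slc25a5 differed by -1.33 (adjusted p = 0.152) and 0.29 (adjusted p = 0.666), and the phosphate carrier Slc25a3 by -0.11 (adjusted p = 0.880), by limma.

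Of 47 assembly and maturation factors outside the name rule, 1 was higher and none lower, with a median of 0.24. That gene was Atpif1, the inhibitor of ATP synthase hydrolysis, at 7.003 ± 0.31 in non-tuft and 8.37 ± 0.63 in tuft libraries (SD, n = 5), a difference of 1.37 (adjusted p = 0.0441, limma). Of 12 genes of coenzyme Q synthesis 1 was higher, Pdss2, which helps to make the side chain, by 2.02 (adjusted p = 0.0174, limma), and it was listed at 0 or at the library's lowest value in 3 of 5 non-tuft libraries. The mitochondrial ribosome, with 77 genes, had 1 higher, Mrps11 by 1.97 (adjusted p = 0.00297, limma), and a median of 0.03.

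The lists for control and import had 0 genes called by limma. Of 16 genes that control mitochondrial biogenesis, 2 were higher and 1 lower at an unadjusted p under 0.05, with a median of 0.08, and Tfb1m, a mitochondrial RNA methyltransferase, had the smallest p (difference 1.58, adjusted p = 0.0555, limma). A list of 9 genes for electron entry outside complexes I and II also took in Nnt, a transhydrogenase that is no entry enzyme. Of these 9 genes, 1 was higher and 1 lower at an unadjusted p under 0.05, with a median of -0.38. Nnt differed by -1.04 (adjusted p = 0.159, limma). Of 21 protein import genes 0 were higher and 2 lower at an unadjusted p under 0.05, with a median of -0.31, and Hspa9, the matrix chaperone, differed by -1.04 (adjusted p = 0.0685, limma). The 13 subunits encoded in mitochondrial DNA are not among the listed genes and were not analysed here.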

How the data were processed

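Smart-Seq2 libraries of 100 sorted cells were sequenced by the authors as single-end 50 bp reads, mapped to mm9 with HISAT2 and quantified with StringTie (versions are not given in the sources used here). The deposited values are log2(RPKM + 1) after the authors' removal of genes with low variance and quantile normalization. Sorted within a library, the top 8407 values are the same in each of the 10, and 18 symbols had been replaced by dates. The deposited fold (ratio), p-value and false discovery rate columns hold the authors' own comparison and were not used. Depth is unknown, so no counting interval is given.

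Tuft and non-tuft libraries were compared with limma 3.58.1 (R 4.3.3) over all 12160 genes, with default empirical Bayes settings, Benjamini-Hochberg adjustment, no filter on low values and no added value beyond the 1 in the deposited data. The script was tested on simulated data. Single genes were also given an exact two-sided permutation test over libraries. The 5 libraries a group come from 5 mice. Members and lists were chosen with earlier results of these data known. Named genes were all called members, the 3 largest and 3 smallest differences, the highest member of each complex, the Sdh genes, Cycs, isoform groups and the member with the smallest p in each further list. Of the genes named beyond this rule (Cox5b, Cox7c, Cyc1, Uqcrc1, Uqcrc2, Uqcrfs1, Uqcrh, Ndufs1, other Ndufaf genes, Atp5d, Atp5sl, Ptprc, Atp5h, Atp5l, Uqcrb, the Slc25 genes, Vdac3 and Nrf1), all were chosen after their values were seen. Exact copies were sought on both strands of NCBIM37 with GENCODE vM1 protein-coding transcripts. Alternatives were the replicate number as a block, other added values, a filter on low values, centring on ribosomal protein genes, floors set to 0, trend and robust settings, other thresholds and leaving out libraries. Lists named but not described above were fibroblast and endothelial (6 listed of 8, 0 called by limma, 0 at an unadjusted p under 0.05), and eosinophil and erythroid markers, of which 0 were listed. The mean of the fibroblast and endothelial list was 5.69 in non-tuft library 5 and 3.74 in tuft library 5. In every other library it was 1.01 or less, and the part of such cells in the results was not tested.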

Additional observations from a re-analysis of the deposited data

Results flagged for a closer look

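Dixon's test on the libraries of a group marked 6 of 73 groups of values tested for the named members and complex means, where chance marks about 1 in 20. Cox7a1 in tuft library 4 had a gap of 1.0 of the group's range (value 2.62, the other tuft libraries at 0), and Cox6b2 in tuft library 5 had 1.0 (value 0.51). Cox4i2 in non-tuft library 3 had 0.894 (value 1.60), and Ndufa4l2 in the same library had 0.913 (value 1.94). In these groups of Cox7a1, Cox6b2, Cox4i2 and Ndufa4l2, 4 of 5 values were at the library's lowest value. A large gap then follows from the floor, and the rate of 1 in 20 does not apply to them. Ndufa4 in tuft library 1 had 0.725 (value 10.17), and Ndufs3 in tuft library 4 had 0.756 (value 7.65). No library was marked for the mean of any complex.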

How the results depend on the processing

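Of 547 values of named members under an alternative, 483 kept direction and side of the threshold, 34 fell below it, 12 passed it and 18 reversed. Member counts at an adjusted p under 0.05 by limma, 12 as reported (10 higher, 2 lower), were 9 (7 higher, 2 lower) with 0.1 added before the logarithm, where Cox4i1, Ndufaf3 and Ndufa8 had adjusted p-values of 0.0581, 0.0535 and 0.0799, 20 (18 higher) with 10 added, 19 (17 higher) with trend and robust settings, 45 (44 higher, 1 lower) with cytosolic ribosomal centring, 1 lower with genes of a mean of at least 2, which leaves out 7 members (Cox7a1, Cox4i2, Cox6b2, Ndufa4l2, Ndufaf5, Ndufaf6 and Atp5sl), 6 (5 higher, 1 lower) at an adjusted p under 0.01, and 5 (5 higher, 0 lower) without tuft libraries 1 and 2, an alternative chosen after seeing the data. With a fold over 4 also required, they were 6 as reported and 0 lower with 10 added, 0 lower with the mean of at least 2, 14 (13 higher) with ribosomal centring, 3 (3 higher, 0 lower) without tuft libraries 1 and 2, and 12 (10 higher, 2 lower) with a fold over 2. For all listed genes the counts were 2290 (1985 higher, 305 lower), or 1174 higher and 236 lower with a fold over 4, with ribosomal centring; 278 (162 higher, 116 lower) with a fold over 4 and 10 added; 919 (497 higher, 422 lower) without tuft libraries 1 and 2; and 733 (417 higher, 316 lower) at an adjusted p under 0.01. The members' median was 1.26 with ribosomal centring. The causes were not tested.

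Leaving out each library in turn gave 8 to 11 called members (7 to 9 higher, 1 to 2 lower), 5 to 6 with a fold over 4 (4 to 5 higher, 1 lower), 1047 to 1358 of all listed genes and a members' median of 0.47 to 0.62. The count of lower members was 1 without tuft library 2 or without tuft library 5.

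Reversed differences (log2) were those of Ndufa4l2 at 0.11 with 0.1 added, 0.68 with ribosomal centring, 0.32 without non-tuft library 3, 0.037 without tuft library 1, 2 or 4, and 0.19 without tuft libraries 1 and 2. Ribosomal centring shifts all genes alike, taking the median of all listed genes from 0.02 to 0.76, so that small negative differences become positive by construction, and with it Atp5g1 was at 0.043, Atp5g2 at 0.31, Cox4i2 at 0.38, Ndufs3 at 0.52 and Sdhc at 0.65. Over the libraries left out singly, Cycs ran from -0.016 (without non-tuft library 3) to 0.37, Sdhc from -0.23 to 0.047 (without non-tuft library 4), Atp5g3 from -0.081 (without non-tuft library 5; -0.018 without tuft library 1) to 0.24 and Ndufa4l2 from -0.24 to 0.32. Without tuft libraries 1 and 2, Sdhc was at 0.013 and Atp5g3 at -0.017.

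The labels do not say that a replicate number marks a mouse in both groups. Deviations of same-numbered libraries correlated at 0.124, 0.079, 0.115, 0.062 and 0.240 over 12160 genes. Non-tuft library 2 and tuft library 1 correlated best with each other (0.1243), and tuft library 3 with non-tuft library 5 (0.139). Every other library correlated best with its own number. With the replicate number as a block, 10 members (8 higher, 2 lower) and 1406 of all listed genes were called; Cox4i1, Ndufa8 and Ndufaf3 had adjusted p-values of 0.0601, 0.0726 and 0.0533, and Ndufb8 of 0.0378, by limma.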
